A study of Mus musculus with 20 samples.

Results

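The comparison described here sets splenic myeloid cells of mice bearing the YUMM3.3 melanoma against those of healthy mice, gene set by gene set. Its members are all 3883 gene sets of both deposited enrichment reports on these groups, of 27169 gene set rows in the 14 reports of the series. One report lists the sets higher in YUMM3.3-bearing spleen and the other those higher in healthy spleen. Each group was 2 libraries of myeloid cells from adult C57BL/6 mice, obtained from the spleen with a kit that depletes CD3e-positive cells, and no other allele or agent is labelled for either group. The mice differed by the YUMM3.3 tumour, a melanoma line derived from an engineered mouse model. The labels leave out the site of the tumour, its size and the days of growth. Depletion of CD3e-positive cells removes T cells and leaves other splenic cells, and no single gene is measured in the reports, so the myeloid label could not be checked against defining markers. The labels do not say whether the 2 libraries of a group came from separate animals, and no value per library was analysed here.

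Blood formation in adult mice takes place mainly in the bone marrow, and the spleen keeps a capacity for it that tumours and inflammation are known to engage. Myeloid progenitors divide, whereas mature neutrophils, monocytes and macrophages largely do not, so gene sets of the cell cycle are read in such tissue as marks of dividing cells. The spleen also holds platelets, their parent cells the megakaryocytes, red cell precursors, B cells and a supporting framework of stroma and vessels. In samples of mixed cells, fewer cells of a type and less RNA per cell cannot be told apart.

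Each set had 1 normalised enrichment score (NES), which says how far its genes gather at an end of the list of genes ranked between the groups, scaled for set size. Positive NES here means higher in YUMM3.3-bearing spleen, and negative NES means higher in healthy spleen. This direction rests on the names of the reports, each read as listing what is higher in the group it names first. The signs listed in the reports do not follow 1 convention, and those of this comparison are negative for sets of the YUMM3.3 report and positive for sets of the healthy report, so signs were set here by report. No member gene was available to check the direction, and every signed value credited to the deposited table carries the sign set in this way. A set was called at a deposited false discovery rate (FDR) q below 0.05. The smallest nominal p above 0 in the authors' deposited table was 0.00153, while relabelling 2 libraries against 2 gives no one-sided p below 0.167. The deposited p and q therefore do not measure the spread between libraries or animals. Below, a set is said to score its NES. The listed ranks and percentages of the ranked list are met by a list of 14549 genes.

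At that threshold, 607 sets were higher in YUMM3.3-bearing spleen, 15.6% of all sets, and 206 were lower, 5.31%. The 2 directions differed more in strength than in the number of sets on each side, since 1876 sets were listed higher and 2007 lower. Of the higher sets 119 had an NES of at least 2.5, and of the lower sets 3 reached that size. The lower calls were the more sensitive to the threshold, with 1.26% of all sets lower at an FDR q below 0.01 and 25% at an FDR q below 0.25. Gene sets share genes, so the counts are not counts of separate events. All medians below are medians of NES over every set of a list, called or not, and the median over all 3883 sets was -0.69.

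The leading edge of a set is the part of its genes ranked before the score peaks. In higher sets the median leading edge was 48.0% of the genes of the set (quartiles 37% and 60%), and in lower sets it was 33.0% (quartiles 27% and 40%). Both were reached at a similar depth, a median of 14.0% of the ranked list for higher sets and 13.0% for lower ones. At least 75% of the genes lay in the leading edge of 41 higher sets and of 1 lower set, the ribosome set described below. In the typical lower set, a minority of the genes thus carried the score.

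**Figure D1:**
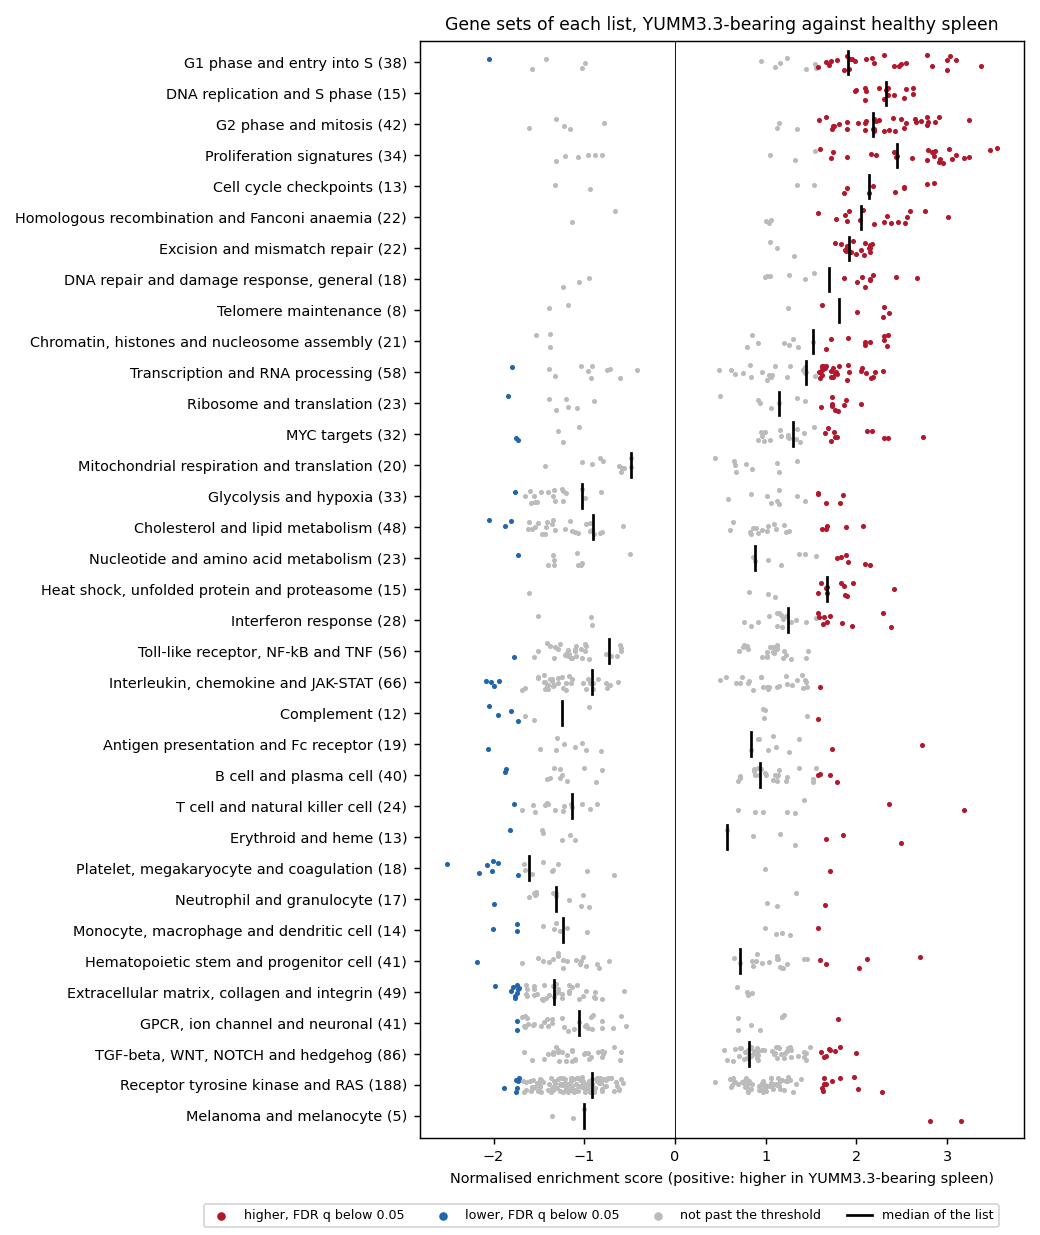
Each point is 1 gene set, placed by its NES in YUMM3.3-bearing against healthy spleen, with the lists in rows, the number of sets in brackets and the list median as a black bar. All 15 replication sets lie on the higher side past the threshold, and the platelet and matrix lists have their medians at -1.61 and -1.33.

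Sets of cell division stood highest in YUMM3.3-bearing spleen, from entry into S phase to mitosis. Of 121 sets in any cell division list, 90 were higher and 1 was lower, against 15.6% and 5.31% of all sets. The lists were read in the order of the cycle. Entry into S phase is driven by E2F factors once the retinoblastoma protein releases them. In the list of this stage 26 of 38 sets were higher with a median NES of 1.91. The lists share sets, and some of the 26 also stand in the list of G2 phase and mitosis. In the authors' deposited table KONG_E2F3_TARGETS, genes switched on by E2F3, scored 3.37, with 74% of its 90 genes in the leading edge and within the first 5% of the ranked list. ISHIDA_E2F_TARGETS reached 3.10 in the authors' deposited table. The single lower set of the list, IIZUKA_LIVER_CANCER_PROGRESSION_L1_G1_UP at a score of -2.05 in the authors' deposited table, was taken by its wording, since G1 there is a tumour grade and not a phase.

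All 15 DNA replication sets were higher, with a median of 2.33 and a range from 1.99 to 2.63. The authors' deposited table gave REACTOME_DNA_REPLICATION 2.63 and REACTOME_S_PHASE 2.62. REACTOME_DNA_STRAND_ELONGATION, the polymerases, clamp and helicase of the moving fork, scored 2.55 in the authors' deposited table with 84% of its 31 genes in the leading edge. The leading edge covered 88% of the 24 genes of REACTOME_TELOMERE_C_STRAND_LAGGING_STRAND_SYNTHESIS in the authors' deposited table. The last sets named thus had nearly all their genes in the leading edge. For REACTOME_DNA_REPLICATION the leading edge was 64% in the authors' deposited table, and the median leading edge over the list was 66%.

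In G2 phase and mitosis 34 of 42 sets were higher and 0 lower, with a median of 2.18. FISCHER_G2_M_CELL_CYCLE, genes that peak at G2 and mitosis, scored 3.24 over 201 genes in the authors' deposited table, with 54% of them in the leading edge. For REACTOME_CELL_CYCLE_MITOTIC, the largest set of the list named here with 450 genes, the authors' deposited table held 2.91 and a leading edge of 50%. Checkpoint sets, which cover the halt of the cycle when DNA is damaged or the spindle is unattached, were higher in 9 of 13 cases with a median of 2.14. In the authors' deposited table REACTOME_MITOTIC_SPINDLE_CHECKPOINT scored 2.78 and PID_ATR_PATHWAY, the kinase that answers stalled forks, 2.53. Both spindle and replication-stress checkpoints therefore stood on the tumour-bearing side.

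Published proliferation signatures had some of the largest scores of the 3883 sets. Of 34 such sets 25 were higher and 0 lower, with a median of 2.45. ROSTY_CERVICAL_CANCER_PROLIFERATION_CLUSTER scored 3.55 in the authors' deposited table with 76% of its 123 genes in the first 7% of the ranked list. SOTIRIOU_BREAST_CANCER_GRADE_1_VS_3_UP, genes of high-grade breast tumours, reached 3.47 in the authors' deposited table. Other sets at the top were not named for the cell cycle: DUTERTRE_ESTRADIOL_RESPONSE_24HR_UP scored 3.55 and BURTON_ADIPOGENESIS_3 had 3.33 in the authors' deposited table. Their leading edges covered 57% and 72% of the genes within the first 8% and 4% of the ranked list in the authors' deposited table. Whether these sets hold the same genes was not tested, since the reports give no member genes.

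DNA repair sets were higher as a group. Of 67 sets in any repair list, 48 were higher and 0 lower, with a median of 1.92. Homologous recombination mends double-strand breaks from the sister copy, and 17 of 22 sets of this list were higher with a median of 2.05. The 17 include a set of nonhomologous end joining and expression signatures taken by the names BRCA1 or BRCA2. Of these signatures PUJANA_BRCA2_PCC_NETWORK, the highest of the list, had 3.01 and PUJANA_BREAST_CANCER_WITH_BRCA1_MUTATED_UP 2.76. REACTOME_HDR_THROUGH_HOMOLOGOUS_RECOMBINATION_HRR scored 2.59 over 56 genes in the authors' deposited table, and KEGG_HOMOLOGOUS_RECOMBINATION had 2.04 with 65% of its 23 genes in the leading edge. Excision and mismatch repair, which replace single damaged or mispaired bases, were higher in 19 of 22 sets with a median of 1.92. REACTOME_PCNA_DEPENDENT_LONG_PATCH_BASE_EXCISION_REPAIR scored 2.14 in the authors' deposited table, with a leading edge of 86% of its 21 genes. KAUFFMANN_DNA_REPAIR_GENES, a broad set of 207 genes, scored 2.67 in the authors' deposited table, with a leading edge of 53%. Of 8 telomere sets 5 were higher, with a median of 1.81 that was 0.16 with names ending in DN kept, led by REACTOME_EXTENSION_OF_TELOMERES at a score of 2.36 in the authors' deposited table. The repair lists were thus higher like the division lists, but some sets stand in both. Among them are REACTOME_TELOMERE_C_STRAND_LAGGING_STRAND_SYNTHESIS and REACTOME_G2_M_DNA_DAMAGE_CHECKPOINT. How much of the likeness comes from such shared sets was not tested. Repair and division sets also use some of the same enzymes: the sliding clamp and the replicative polymerases serve both.

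The rank at which a score peaks shows part of this sharing. A score turns at a gene of the set, so sets of 1 direction with the same peak rank share that gene, and this was looked at after the values had been seen. Of the 607 higher sets, 308 shared their peak rank with another higher set, and the 607 sets peaked at 396 distinct ranks. Of the 206 lower sets, 53 shared a rank, with 177 distinct ranks. At rank 1911 from the tumour-bearing end, 7 higher sets peaked together in the authors' deposited table, among them REACTOME_DNA_STRAND_ELONGATION, REACTOME_EXTENSION_OF_TELOMERES and REACTOME_FANCONI_ANEMIA_PATHWAY. Replication, telomere and crosslink repair sets thus had at least that gene in common.

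Sets of chromatin and of the handling of RNA in the nucleus were also higher. Of 134 sets in any gene expression list, 57 were higher and 4 lower, with a median of 1.40. Among 21 chromatin sets 10 were higher and 0 lower, with a median of 1.52, or 0.85 with each first word counted once. The sets of enzymes that add or remove methyl groups on histones were among them: the authors' deposited table gave REACTOME_RMTS_METHYLATE_HISTONE_ARGININES 2.35, REACTOME_PKMTS_METHYLATE_HISTONE_LYSINES 2.31 and REACTOME_HDMS_DEMETHYLATE_HISTONES 2.31. REACTOME_NUCLEOSOME_ASSEMBLY, which loads histones and the centromere variant onto DNA, scored 2.15 in the authors' deposited table with 67% of its 43 genes in the first 9% of the ranked list. Sets named for methylation and for demethylation were both higher, and which of their genes, enzymes or histones, carried the scores was not tested.

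In the transcription and RNA processing list 27 of 58 sets were higher, 13 of them at an FDR q below 0.01, and 1 was lower. The median was 1.44, and 0.37 with each first word counted once. REACTOME_PROCESSING_OF_CAPPED_INTRON_CONTAINING_PRE_MRNA, which joins capping, splicing and tail formation, scored 2.29 over 200 genes in the authors' deposited table. Its leading edge held 63% of the genes and reached 33% of the way down the ranked list in the authors' deposited table, far deeper than the 5% of the E2F3 targets. The genes behind its score were thus spread further down the list than those of the E2F3 set.

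Nuclear pore sets formed a compact group. REACTOME_NUCLEAR_IMPORT_OF_REV_PROTEIN, a set of pore and import proteins used by a viral protein, scored 2.20 in the authors' deposited table with 87% of its 31 genes in the leading edge. REACTOME_NUCLEAR_PORE_COMPLEX_NPC_DISASSEMBLY scored 2.21 in the authors' deposited table, with a leading edge of 78% of its 32 genes. Grouping the pore, import and export sets by name after their values had been seen gave 7 sets, all higher, with a range from 2.18 to 2.26. At rank 2874, 14 higher sets peaked together, the most at any rank. They included REACTOME_NUCLEAR_PORE_COMPLEX_NPC_DISASSEMBLY, 5 SUMOylation sets and REACTOME_GLYCOLYSIS, whose NES was 1.58 in the authors' deposited table. Reactome counts nuclear pore proteins in its glycolysis pathway, through the control of glucokinase, and KEGG_GLYCOLYSIS_GLUCONEOGENESIS scored -1.52 with an FDR q of 0.104 in the authors' deposited table. The glycolysis sets were chosen for naming after their values were seen, and the part of the pore genes in the Reactome call was not tested.

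**Figure D2:**
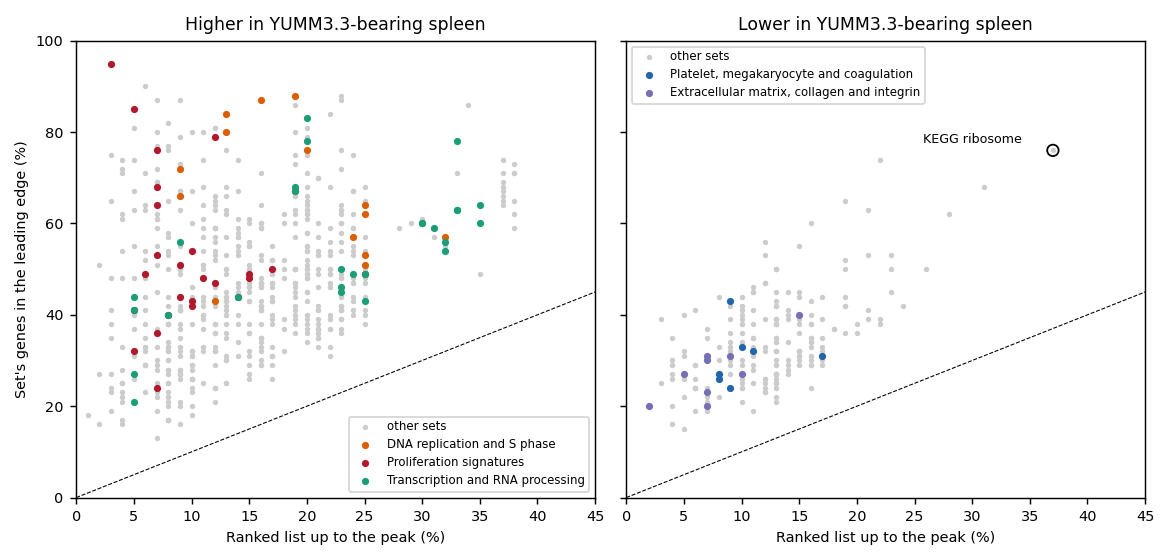
Each point is a called gene set, with the share of the ranked list before its peak on the x axis (%) and the share of its genes in the leading edge on the y axis (%), higher sets on the left and lower sets on the right. On the dashed line both shares are equal. Proliferation sets reach high shares within the first part of the list, RNA processing sets extend beyond 30% of the list, and KEGG ribosome stands apart among lower sets with 76% of its genes at 37% of the list.

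Ribosomal and mitochondrial sets did not follow the division sets. In the translation list 9 of 23 sets were higher and 1 was lower. The median was 1.15, and it was -1.25 with each first word of a set name counted once. The higher members were sets named for transfer RNA and for ribosomal RNA control: REACTOME_TRNA_PROCESSING_IN_THE_NUCLEUS scored 2.05 and REACTOME_CYTOSOLIC_TRNA_AMINOACYLATION, the enzymes that charge transfer RNA, 1.89 in the authors' deposited table. At rank 3281, 5 higher sets peaked together, among them REACTOME_TRNA_PROCESSING_IN_THE_NUCLEUS and the pore and import set REACTOME_NUCLEAR_IMPORT_OF_REV_PROTEIN. The part of shared genes in the transfer RNA processing call was not tested. KEGG_RIBOSOME, the ribosomal proteins themselves, was lower at a score of -1.84 and an FDR q of 0.0217 in the authors' deposited table. REACTOME_TRANSLATION, named after its value was seen, scored 1.06 with an FDR q of 0.539 in the authors' deposited table. None of 20 mitochondrial sets was called in either direction, and their median was -0.48. KEGG_OXIDATIVE_PHOSPHORYLATION, also named after its value was seen, scored -0.58 with an FDR q of 0.992 in the authors' deposited table.

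Protein quality control was higher. Of 15 sets of heat shock, unfolded protein and proteasome 11 were higher and 0 lower, with a median of 1.68. REACTOME_REGULATION_OF_HSF1_MEDIATED_HEAT_SHOCK_RESPONSE, on the factor that induces chaperones, scored 2.42 in the authors' deposited table. The smaller sets REACTOME_HSF1_ACTIVATION and REACTOME_HSF1_DEPENDENT_TRANSACTIVATION, named after their values were seen, had 1.86 and 1.68. Which genes carried the score of the larger set was not tested. REACTOME_ATF4_ACTIVATES_GENES_IN_RESPONSE_TO_ENDOPLASMIC_RETICULUM_STRESS, an arm of the unfolded protein response, had 1.90, and KEGG_PROTEASOME 1.83 with 74% of its 42 genes in the leading edge, in the authors' deposited table. At rank 5342, 8 higher sets peaked together, among them KEGG_PROTEASOME, REACTOME_CELLULAR_RESPONSE_TO_HYPOXIA and REACTOME_HEDGEHOG_LIGAND_BIOGENESIS. Reactome counts proteasome subunits in these pathways, and the part of those genes in the hypoxia and hedgehog calls was not tested.

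MYC, a factor that drives growth and division, had 11 of 32 target sets higher and 2 lower, with a median of 1.30. YU_MYC_TARGETS_UP scored 2.73 and PID_MYC_ACTIV_PATHWAY 2.12 in the authors' deposited table.

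Metabolic sets as a whole were near the background, with 16 of 123 sets in any metabolic list higher, 13.0%, and 5 lower, 4.07%. Of 48 cholesterol and lipid sets 5 were higher, 10.4%, and 3 lower, 6.25%, against 15.6% and 5.31% of all sets. The control of cholesterol synthesis by SREBP factors, which switch on the synthesis genes when membranes lack sterol, was higher. REACTOME_REGULATION_OF_CHOLESTEROL_BIOSYNTHESIS_BY_SREBP_SREBF scored 2.07 over 51 genes, with 59% of them in the leading edge, in the authors' deposited table. REACTOME_ACTIVATION_OF_GENE_EXPRESSION_BY_SREBF_SREBP had 1.89 and the synthesis enzymes themselves, REACTOME_CHOLESTEROL_BIOSYNTHESIS, 1.62 with an FDR q of 0.0338 in the authors' deposited table. Lower sets of the list included those of fatty acids and peroxisomes: the authors' deposited table gave REACTOME_FATTY_ACID_METABOLISM -1.87 and REACTOME_PEROXISOMAL_LIPID_METABOLISM -1.81. KEGG_ARACHIDONIC_ACID_METABOLISM, the source of prostaglandins and leukotrienes outside that list and named here after its value was seen, had -2.03 in the authors' deposited table.

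The nucleotide and amino acid list had 6 of 23 sets higher, of which 5 were nucleotide excision or patch repair sets taken by their wording. REACTOME_GLUTATHIONE_CONJUGATION, a detoxifying reaction, was the lower set of that list, at a score of -1.73 with 63% of its 30 genes in the leading edge in the authors' deposited table. KEGG_PORPHYRIN_AND_CHLOROPHYLL_METABOLISM, which includes heme synthesis and breakdown, scored -1.71 with 16% of its 32 genes in the leading edge in the authors' deposited table. Of 33 glycolysis and hypoxia sets 5 were higher, 15.2%, and 1 was lower, 3.03%, against 15.6% and 5.31% of all sets. Hypoxia sets pointed both ways: GROSS_HYPOXIA_VIA_HIF1A_UP had 1.85 and MANALO_HYPOXIA_UP had -1.76 in the authors' deposited table.

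Among immune signals the interferon sets were higher, and those of interleukin 12 and complement were lower. Of 28 interferon sets 10 were higher and 0 lower, with a median of 1.25. REACTOME_ANTIVIRAL_MECHANISM_BY_IFN_STIMULATED_GENES scored 2.38 in the authors' deposited table with 66% of its 74 genes in the leading edge. ZHANG_INTERFERON_RESPONSE had 2.29 with 63% of its 16 genes in the first 6% of the ranked list, and EINAV_INTERFERON_SIGNATURE_IN_CANCER had 1.95, in the authors' deposited table. Reactome counts nuclear pore and import proteins in the antiviral set, whereas the small experimental signatures are lists of induced genes, and both kinds of set were higher.

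Inflammatory receptor sets were mostly not called. Of 56 sets of Toll-like receptors, NF-kB and tumour necrosis factor 0 were higher and 1 was lower, with a median of -0.73. Among 66 interleukin, chemokine and JAK-STAT sets 1 was higher, 1.52%, and 4 lower, 6.06%, against 15.6% and 5.31% of all sets. Interleukin 12 is made by macrophages and dendritic cells and acts through STAT4 on T and natural killer cells. PID_IL12_STAT4_PATHWAY scored -2.03 with 42% of its 31 genes in the leading edge, and BIOCARTA_IL12_PATHWAY had -2.00, in the authors' deposited table. The complement list had 1 of 12 sets higher and 4 lower, with a median of -1.25 that was 0.97 among sets of 25 to 200 genes. Its higher set, YIH_RESPONSE_TO_ARSENITE_C3, and 1 of the lower, WANG_CLASSIC_ADIPOGENIC_TARGETS_OF_PPARG, were taken by their wording and are not complement sets. REACTOME_COMPLEMENT_CASCADE had -1.95 and REACTOME_INITIAL_TRIGGERING_OF_COMPLEMENT -1.81 in the authors' deposited table.

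KEGG_LYSOSOME, the acid hydrolases and membrane proteins with which macrophages digest what they take up, scored -2.06 in the authors' deposited table with 38% of its 117 genes in the leading edge. GOLDRATH_ANTIGEN_RESPONSE, genes of T cells answering antigen, had 2.72 and REACTOME_MHC_CLASS_II_ANTIGEN_PRESENTATION 1.73 in the authors' deposited table. The leading edge of the latter set was small in the authors' deposited table, 20% of 105 genes within the first 8% of the ranked list. Whether that minority includes the antigen-presenting molecules themselves was not tested, since no member genes are given. Of the 19 sets of antigen presentation and Fc receptors 2 were higher, 10.5%, and 1 lower, 5.26%, at or below the shares of all sets. Their median was 0.84, and -1.01 among sets of 25 to 200 genes.

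Of 165 sets in any cell type list 17 were higher, 10.3% against 15.6% of all sets, and 16 lower, 9.7% against 5.31%. Platelet and coagulation sets were the most one-sided, with 7 of 18 lower and 1 higher and a median of -1.61. A published set of 61 platelet-specific genes scored -2.51 in the authors' deposited table, with 43% of them in the first 9% counted from the healthy end. GNATENKO_PLATELET_SIGNATURE, transcripts of circulating platelets, had -2.07 and REACTOME_PLATELET_ACTIVATION_SIGNALING_AND_AGGREGATION -2.16 in the authors' deposited table. REACTOME_FORMATION_OF_FIBRIN_CLOT_CLOTTING_CASCADE had -1.95 in the authors' deposited table. The single higher set of the list, REACTOME_FACTORS_INVOLVED_IN_MEGAKARYOCYTE_DEVELOPMENT_AND_PLATELET_PRODUCTION, had 1.71 in the authors' deposited table with 17% of its 137 genes in the leading edge. That set peaked at rank 1101 together with 4 other called sets, among them REACTOME_GOLGI_TO_ER_RETROGRADE_TRANSPORT, in the authors' deposited table.

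Several signatures of mature blood cells and of tissue immune cells were lower. KEGG_HEMATOPOIETIC_CELL_LINEAGE, surface markers of the blood lineages, scored -2.18 over 80 genes in the authors' deposited table. JAATINEN_HEMATOPOIETIC_STEM_CELL_DN, genes lower in stem cells than in mature blood cells, had -2.53 over 190 genes in the authors' deposited table. NAKAJIMA_MAST_CELL had -2.00 and LENAOUR_DENDRITIC_CELL_MATURATION_UP -2.01 in the authors' deposited table. COATES_MACROPHAGE_M1_VS_M2_UP had -1.74 in the authors' deposited table, so that 3 of 14 monocyte, macrophage and dendritic cell sets were lower and 1 was higher, with a median of -1.23. In the neutrophil list 1 of 17 sets was higher and 1 lower, 5.88% each, against 15.6% and 5.31% of all sets. The list's median was -1.31, with 4 of the 17 sets listed higher. Its lower set was the mast cell set NAKAJIMA_MAST_CELL. The higher was REACTOME_TRANSCRIPTIONAL_REGULATION_OF_GRANULOPOIESIS with 1.65 in the authors' deposited table. That set peaked at rank 1334 together with the cell cycle sets PID_FOXM1_PATHWAY and REACTOME_G0_AND_EARLY_G1. The part of shared genes in the granulopoiesis call was not tested.

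Of 41 sets in the stem and progenitor list 5 were higher, 12.2%, and 1 was lower, 2.44%, both below the shares of all sets. The highest of the 5, ZHANG_BREAST_CANCER_PROGENITORS_UP, was taken by its wording and is named for breast cancer, not for blood progenitors. The lower set was KEGG_HEMATOPOIETIC_CELL_LINEAGE, the lineage markers described above. EPPERT_PROGENITOR, genes of human blood progenitors, scored 2.12 and HESS_TARGETS_OF_HOXA9_AND_MEIS1_UP 2.03 in the authors' deposited table. The list's median was 0.72 and became -0.73 among sets of 25 to 200 genes and -0.87 with each first word counted once. Of 40 B cell sets 4 were higher and 2 lower, and of 24 T and natural killer cell sets 2 were higher and 1 lower, all at or below the shares of all sets. Of the higher T cell sets LEE_EARLY_T_LYMPHOCYTE_UP had 3.19 and SASAKI_ADULT_T_CELL_LEUKEMIA 2.36 in the authors' deposited table. HOFFMANN_LARGE_TO_SMALL_PRE_BII_LYMPHOCYTE_UP, from cycling B cell precursors and in no list, had 3.28 in the authors' deposited table. TARTE_PLASMA_CELL_VS_PLASMABLAST_UP, genes higher in resting plasma cells than in their dividing precursors, had -1.87 in the authors' deposited table. Erythroid sets were 13, with 3 higher and 1 lower, and all 4 came from 1 study of a differentiating line. RIZ_ERYTHROID_DIFFERENTIATION had 2.49 and RIZ_ERYTHROID_DIFFERENTIATION_12HR -1.82 in the authors' deposited table. How much of each cell type signature is cell cycle genes was not tested.

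Sets of matrix, adhesion and cell contact were lower. In the list of extracellular matrix, collagen and integrin 9 of 49 sets were lower and 0 higher, with a median of -1.33 and 5 of the 49 listed on the higher side. PID_INTEGRIN_A4B1_PATHWAY, the integrin that holds blood cells to vessel walls and stroma, scored -1.99 in the authors' deposited table. Its leading edge was 20% of 30 genes and lay within the first 2% from the healthy end, so about 6 genes gave the score, in the authors' deposited table. KEGG_CELL_ADHESION_MOLECULES_CAMS had -1.79 and REACTOME_SYNDECAN_INTERACTIONS -1.81 in the authors' deposited table. WU_CELL_MIGRATION had -2.25 over 160 genes in the authors' deposited table. Cadherin and junction sets, grouped by name after their values had been seen, numbered 15, of which 6 were lower and 0 higher.

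In the list of G protein-coupled receptors, ion channels and neurons 1 of 41 sets was higher, 2.44%, and 2 were lower, 4.88%. The list of TGF-beta, WNT, NOTCH and hedgehog had 8 of 86 sets higher, 9.3%, and 0 lower. Its median was 0.82, or -0.61 with each first word counted once. KARLSSON_TGFB1_TARGETS_UP scored 2.00 and KENNY_CTNNB1_TARGETS_UP 1.76 in the authors' deposited table. In the list of receptor tyrosine kinases 10 of 188 sets were higher, 5.32%, and 6 lower, 3.19%. All these shares were below the 15.6% higher and 5.31% lower of all sets. AMIT_EGF_RESPONSE_480_HELA, late genes of the response to epidermal growth factor, had -1.89 in the authors' deposited table. Melanoma sets numbered 5, of which the 2 higher were signatures of metastasis and relapse: WINNEPENNINCKX_MELANOMA_METASTASIS_UP had 3.15 and KAUFFMANN_MELANOMA_RELAPSE_UP 2.81 in the authors' deposited table. The list's median was -1, and 0.91 with each first word counted once. How far division genes carry these 2 scores was not tested, and whether melanoma cells were present could not be examined without member genes.

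At the edge of the threshold, ACEVEDO_LIVER_TUMOR_VS_NORMAL_ADJACENT_TISSUE_DN was called at a score of -1.70 and an FDR q of 0.0496 in the authors' deposited table. GOLDRATH_IMMUNE_MEMORY was not, with -1.70 and 0.0501 in the authors' deposited table. GENTILE_UV_RESPONSE_CLUSTER_D4, on the other side, was not called with 1.56 and 0.0503 in the authors' deposited table.

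The same tumour was compared with healthy mice in bone marrow, in 2 libraries against 3, none of which is a spleen library. In marrow 376 sets were higher with YUMM3.3, 9.68%, and 253 lower, 6.52%. Of the 607 sets higher in spleen, 97 were higher in marrow, which is 16.0% of the spleen list and 25.8% of the marrow list, and 101 were lower in marrow, 16.6% and 39.9%. At an FDR q below 0.25 in both organs, 22.9% of the sets higher in spleen were higher in marrow and 33.3% were lower. Of the 206 sets lower in spleen, 1 was lower in marrow, 0.485% of the spleen list, and 24 were higher, 11.7%. At an FDR q below 0.25 these shares were 9.39% and 24.8%. Whether the marrow and spleen libraries came from the same animals is not labelled.

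Which sets turned over between the organs depended on the list. Proliferation signatures had a median NES of -1.34 in marrow against 2.45 in spleen, with 6 of 34 lower and 1 higher in marrow. FISCHER_G2_M_CELL_CYCLE had -2.17 in marrow in the authors' deposited table, past the threshold, against 3.24 in spleen. The list of G2 phase and mitosis was mixed in marrow, with 9 of 42 sets higher and 7 lower. Among replication sets 5 of 15 were higher in marrow and 0 lower, but their marrow median was -0.99, with 7 of the 15 listed higher. REACTOME_DNA_REPLICATION had 1.71 in marrow, past the threshold, and REACTOME_DNA_STRAND_ELONGATION -1.18, not past it, in the authors' deposited table. REACTOME_NUCLEAR_PORE_COMPLEX_NPC_DISASSEMBLY was opposite too, with -2.17 in marrow in the authors' deposited table.

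Chromatin sets were higher in both organs, with 11 of 21 higher in marrow. The authors' deposited table gave REACTOME_RMTS_METHYLATE_HISTONE_ARGININES 2.57 and REACTOME_HDMS_DEMETHYLATE_HISTONES 2.44 in marrow. Of 23 translation sets 15 were higher in marrow and 9 in spleen, and of 20 mitochondrial sets 10 were higher in marrow and 0 in spleen. Their marrow medians were 2.73 and 1.86. KEGG_RIBOSOME had 3.13 in marrow and -1.84 in spleen in the authors' deposited table, past the threshold in opposite directions. No test of the difference between organs was possible for these values.

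**Figure D3:**
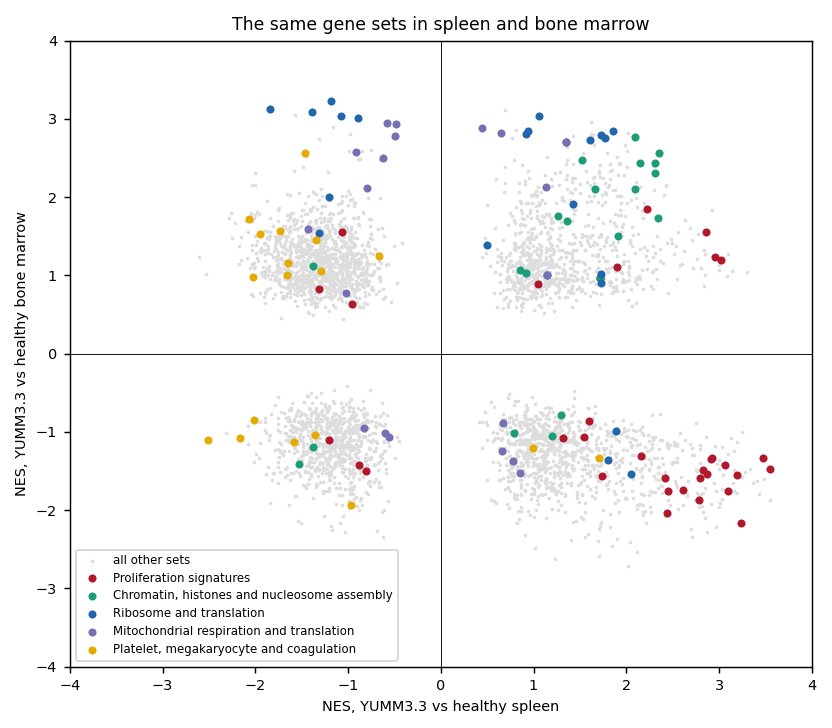
Each point is 1 of the 3883 gene sets, with its NES in YUMM3.3-bearing against healthy spleen on the x axis and in bone marrow on the y axis, and 5 lists coloured. Proliferation sets lie mainly at the lower right and chromatin sets mainly at the upper right. On the marrow axis 20 of 23 ribosome and translation sets and 13 of 20 mitochondrial sets lie above 0.

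A melanoma of another origin, B16F10, a metastatic C57BL/6 line, was carried by the mice of another 2 spleen libraries. Its comparison with healthy spleen shares the healthy libraries with the comparison described here, so the values are given side by side only. With B16F10, 643 sets were higher, 16.6%, and 62 lower, 1.6%. The authors also compared both tumours directly, with 57 sets higher in YUMM3.3-bearing spleen, 1.47%, and 374 lower, 9.63%. That comparison, which shares the YUMM3.3 libraries, is the test of the difference between tumours used below.

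Division sets were higher with both tumours. Of 121 such sets 80 were higher and 1 was lower with B16F10, and in the direct comparison 1 was higher and 8 were lower with YUMM3.3. In the authors' deposited table REACTOME_DNA_REPLICATION scored 2.36 with B16F10 and -1.28 in the direct comparison, and REACTOME_CELL_CYCLE_MITOTIC had 2.23 and -0.86, neither direct value past the threshold. PID_IL12_STAT4_PATHWAY was lower with both, at -2.08 with B16F10 and -0.65 directly in the authors' deposited table. For these 3 pathways the tumours did not differ past the threshold, which does not show that they act alike.

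Sets of cholesterol control and sets named for histone methylation and demethylation were higher with YUMM3.3 than with B16F10. REACTOME_REGULATION_OF_CHOLESTEROL_BIOSYNTHESIS_BY_SREBP_SREBF had -2.06 with B16F10 and 2.51 in the direct comparison, with a direct FDR q listed at 0, in the authors' deposited table. In the direct comparison the authors' deposited table gave REACTOME_CHROMATIN_ORGANIZATION 2.20, REACTOME_HDMS_DEMETHYLATE_HISTONES 2.13, REACTOME_PKMTS_METHYLATE_HISTONE_LYSINES 2.13 and REACTOME_CHOLESTEROL_BIOSYNTHESIS 2.13, all past the threshold. Of 21 chromatin sets 5 were higher directly and 0 lower, and of 15 replication sets 0 were called in either direction.

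Platelet, lysosome and heme sets were lower with YUMM3.3 than with B16F10. Of 18 platelet and coagulation sets 7 were lower in the direct comparison, against 9.63% of all sets, and the direct median was -1.62. With B16F10 against healthy, 3 of the 18 were higher, about the share of all sets, 16.6%. The set of 61 platelet-specific genes had -2.23 and KEGG_LYSOSOME -2.00 directly in the authors' deposited table. KEGG_PORPHYRIN_AND_CHLOROPHYLL_METABOLISM had 2.30 with B16F10 and -2.28 directly, and REACTOME_FORMATION_OF_FIBRIN_CLOT_CLOTTING_CASCADE 1.62 and -1.95, in the authors' deposited table. Mitochondrial sets, of which 0 of 20 were called with YUMM3.3, were higher with B16F10 in 10 and lower directly in 9. Interferon sets were higher with either tumour, in 10 and 14 of 28 sets, and 8 were lower with YUMM3.3 than with B16F10 directly.

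**Figure D4:**
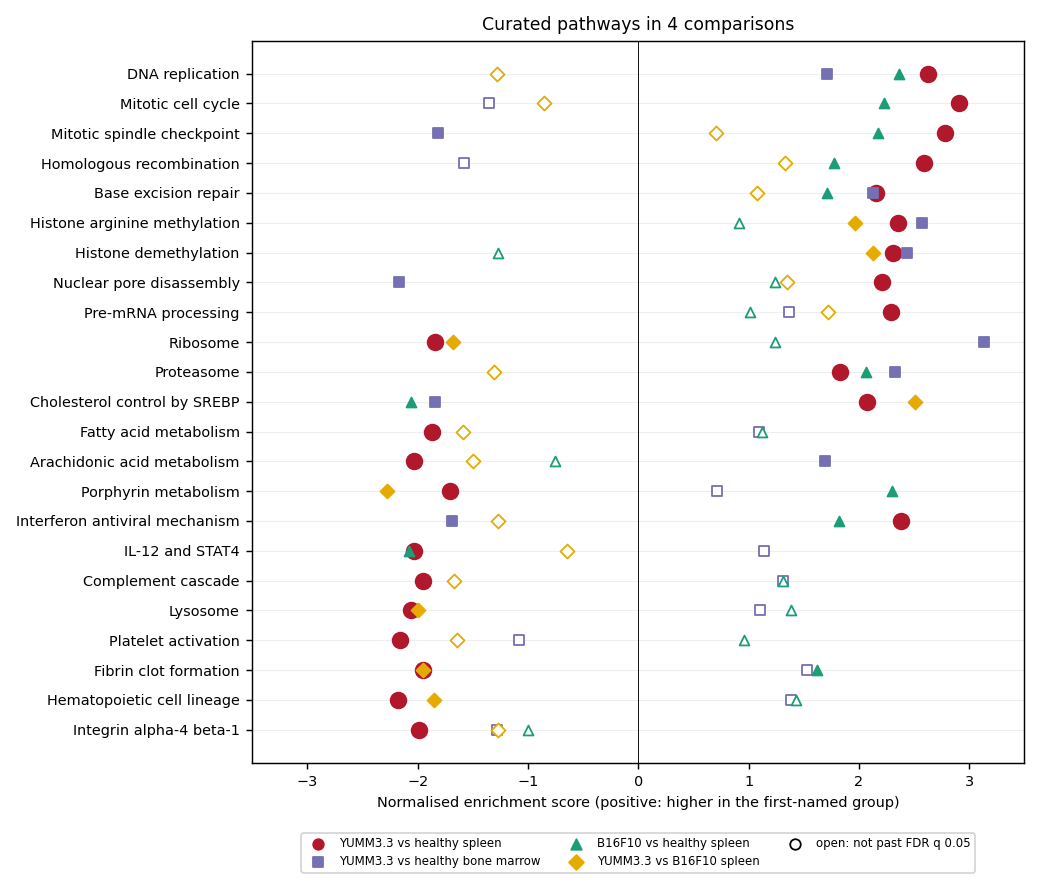
The NES of 23 curated pathways is plotted on the x axis for 4 comparisons, with filled symbols for an FDR q below 0.05 and open symbols for the rest. Division and repair pathways lie on the higher side in spleen with both tumours, cholesterol control lies at 2.07 with YUMM3.3 and -2.06 with B16F10, and the ribosome lies at -1.84 in spleen and 3.13 in marrow.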

How the data were processed

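RNA of myeloid cells and melanoma lines was sequenced in 20 libraries. Per the submitters' processing notes, the tools were STAR 2.7.1a, DESeq2 1.22.2, FastQC 0.11.8 and featureCounts 1.6.0 on mm10, with no role stated for any of them. The deposited files are 14 gene set enrichment reports, of which 8, for 4 comparisons, were used. A deposited row holds, per the file headers, the size of a set, its enrichment score raw and normalised, the peak rank and the leading edge. Nominal, family-wise and FDR-adjusted p-values stand beside them, as deposited. The authors' ranking measure and permutation are not stated, and the depth of the libraries is unknown. The sign of NES was set positive for the first-named group.

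With Python 3.11.15 and pandas, sets were counted at an FDR q below 0.05 and grouped into 36 lists by patterns in their names, leaving out names ending in DN. The members and lists were chosen with earlier results of these data known. Sets named are the 10 with the largest NES per direction, at most 2 per first word, up to 3 per list and direction and the curated pathway with the largest leading edge, 5 by leading edge at each extreme, the sets at the threshold and 5 per direction by the direct comparison of tumours. Others are said to be named after their values were seen or stand with a shared rank. Leading edge gene numbers are size times the listed percentage. Counting and list matching were checked on a made-up table. No library could be left out, no test of libraries was possible, and no set test was run. The result of 1 list and of some sets the rule names is not reported here.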

Additional observations from a re-analysis of the deposited data

Results flagged for a closer look

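Among the sets named in the results, 9 were called in opposite directions against healthy spleen with the 2 tumours and were also called in the authors' direct comparison of YUMM3.3 with B16F10 spleen, which tests the difference. Over all 3883 sets this held for 5 that were higher and 30 that were lower with YUMM3.3. The 2 SREBP pathways were higher with YUMM3.3: REACTOME_REGULATION_OF_CHOLESTEROL_BIOSYNTHESIS_BY_SREBP_SREBF had a direct NES of 2.51 and REACTOME_ACTIVATION_OF_GENE_EXPRESSION_BY_SREBF_SREBP one of 2.5 in the authors' deposited table, both with an FDR q listed at 0. The other metabolic and clotting pathways were lower with YUMM3.3. KEGG_PORPHYRIN_AND_CHLOROPHYLL_METABOLISM had a direct NES of -2.28, REACTOME_GLUTATHIONE_CONJUGATION one of -1.99 and REACTOME_FORMATION_OF_FIBRIN_CLOT_CLOTTING_CASCADE one of -1.95 in the authors' deposited table. The direct NES of JAATINEN_HEMATOPOIETIC_STEM_CELL_DN was -2.49 in the authors' deposited table, that of WANG_CLASSIC_ADIPOGENIC_TARGETS_OF_PPARG -2.19, that of WU_CELL_MIGRATION -2.16 and that of IIZUKA_LIVER_CANCER_PROGRESSION_L1_G1_UP -2.04. The 3 comparisons reuse the same spleen libraries in pairs, so the agreement of their signs is not independent.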

How the results depend on the processing

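Leaving out names by size or source kept both percentages of called sets within 1.5 times, and so did an FDR q below 0.25, an FDR q below 0.01 and a nominal p below 0.05 for the higher sets. With a family-wise p below 0.05, 6.85% of sets were higher and 0.335% lower. The lower sets were 25% at an FDR q below 0.25, 17.9% at a nominal p below 0.05 and 1.26% at an FDR q below 0.01. Of the sets lower in spleen, 9.39% were lower in marrow at an FDR q below 0.25. List medians that changed sign were those of translation (-1.25 with each first word counted once), complement (0.97 among sets of 25 to 200 genes), antigen presentation (-1.01 likewise), TGF-beta, WNT, NOTCH and hedgehog (-0.61 with each first word counted once) and melanoma (0.91 likewise). The erythroid median became -1.10 with names ending in DN kept, -1.10 among sets of 25 to 200 genes and -0.29 with each first word counted once, and the stem and progenitor median became -0.98, -0.73 and -0.87. With each first word counted once, the median fell to 0.37 for RNA processing and 0.85 for chromatin. The cause was not tested. Of 72 list counts, 38 moved by over 1.5 times at an FDR q below 0.25 and 33 at 0.01. No library could be left out, because the reports hold 1 value per set and comparison. No paired analysis was possible because the values are not given per library. Depth is unknown, so what it limits could not be examined.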

Other observations

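The share of called sets differed by where a pathway was curated. Of 893 Reactome sets 23.0% were higher and 3.47% lower, and of 128 BioCarta sets 3.91% were higher and 4.69% lower. KEGG sets, 170 in number, had 9.41% higher and 5.29% lower, and the 179 PID sets had 6.7% and 5.59%. Reactome splits processes such as replication and repair into many overlapping pathways. Sets in no list were 2723, of which 348 were higher and 155 lower. Lowest of all sets in the authors' deposited table was PICCALUGA_ANGIOIMMUNOBLASTIC_LYMPHOMA_UP, at -2.61 over 173 genes, and DEMAGALHAES_AGING_UP, genes that rise with age across tissues, had -2.22.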
